A study of Mus musculus with 2 samples.

Results

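The genes described here are the 9 of the retinoic acid pathway that make the ligand (*Aldh1a2* and *Aldh1a3*), degrade it (*Cyp26a1* and *Cyp26b1*), bind it in the nucleus (*Rara*, *Rarb* and *Rarg*) or carry it in the cytoplasm (*Crabp1* and *Crabp2*). They were taken by gene symbol, and all 9 were found among the 29311 genes for which a value is given. RNA-seq was carried out on 2 samples, 1 of mouse ES cells (strain E14, genotype WT) and 1 of forebrain at embryonic stage E10.5 (strain B6CBAF1/J, genotype WT). The ES cells were grown without feeder cells, with serum and LIF, a cytokine that keeps them undifferentiated. The forebrain RNA came from single embryos. Neither cell type has replicates, so that no difference given here could be compared with the variation between samples of 1 cell type, and no test between the cell types was made.

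Retinoic acid is a small signalling molecule made from vitamin A. Retinol is first oxidized to retinal, mainly by *Rdh10* in the embryo, and retinal is then oxidized to retinoic acid by the *Aldh1a* enzymes. The acid enters the nucleus and binds heterodimers of a retinoic acid receptor (RAR) and a retinoid X receptor (RXR), which sit on direct repeats of a short DNA element and switch their target genes. *Cyp26* enzymes oxidize the acid further and thereby clear it, and *Cyp26a1* and *Rarb* are themselves well-known targets. In the embryo the molecule is known for patterning the hindbrain and trunk, where it acts on *Hox* genes. In the head it is made around the developing eye and nose.

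The ES cell library held 42773609 reads on genes and the forebrain library 59791841, as inferred from the step between low values. All 8 marker genes of ES cells were at least 4-fold higher in ES cells, and all 10 forebrain markers were at least 4-fold higher in the forebrain. The forebrain sample also contained transcripts of other tissues of the head. Of 9 markers of head mesenchyme and neural crest, 8 were at least 4-fold higher in the forebrain, and their summed RPKM was 67.1 in ES cells and 7222 in the forebrain. The 4 markers of primitive blood summed to 280.8 and 673100, and all were higher in the forebrain. Of 4 endothelium markers, 3 were higher in the forebrain, and *Pecam1* was not called (551.14 in ES cells and 316.51 in the forebrain). The sums were 601.8 in ES cells, mainly from *Pecam1*, and 1587 in the forebrain. For the 7 markers of olfactory placode and surface ectoderm the sums were 1969 and 1401, with 4 genes higher in the forebrain and 1, *Epcam*, higher in ES cells. The 6 markers of optic vesicle and retina summed to 337.4 in ES cells, mainly from *Mitf* (328.57), and to 117.7 in the forebrain, where 4 were at least 4-fold higher. In the forebrain *Pax2*, which marks the optic stalk, had an RPKM of 3.39. Fewer cells of a type and less RNA per cell cannot be told apart in such bulk samples.

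Levels are given as the RPKM that the authors deposited, which is per kb of exon and can be compared between genes. A gene was called higher in a sample when RPKM + 1 differed at least 4-fold. In the forebrain, 6 of the 9 genes were called higher (*Aldh1a3*, *Cyp26a1*, *Cyp26b1*, *Rarb*, *Crabp1* and *Crabp2*). None was called higher in ES cells, and 3 (*Aldh1a2*, *Rara* and *Rarg*) were not called. Of all 29311 listed genes, 14.4% were called higher in the forebrain and 11.3% in ES cells. Among the 19620 protein-coding genes these shares were 15.6% and 8.93%. The median log2 ratio of RPKM + 1 (forebrain over ES cells) was 4.39 over the 9 genes and 0.01 over all listed genes. With *Cyp26a1*, which had no read in ES cells, set to the level of 3 reads, the median of the 9 genes was 3.96. On a scale of reads per kb and per library total, as RPKM is usually defined, where values are much smaller and an added 1 weighs more, 3 of the 9 genes were called (*Rarb*, *Crabp1* and *Crabp2*), beside 3.56% of all listed genes.

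**Figure D1:**
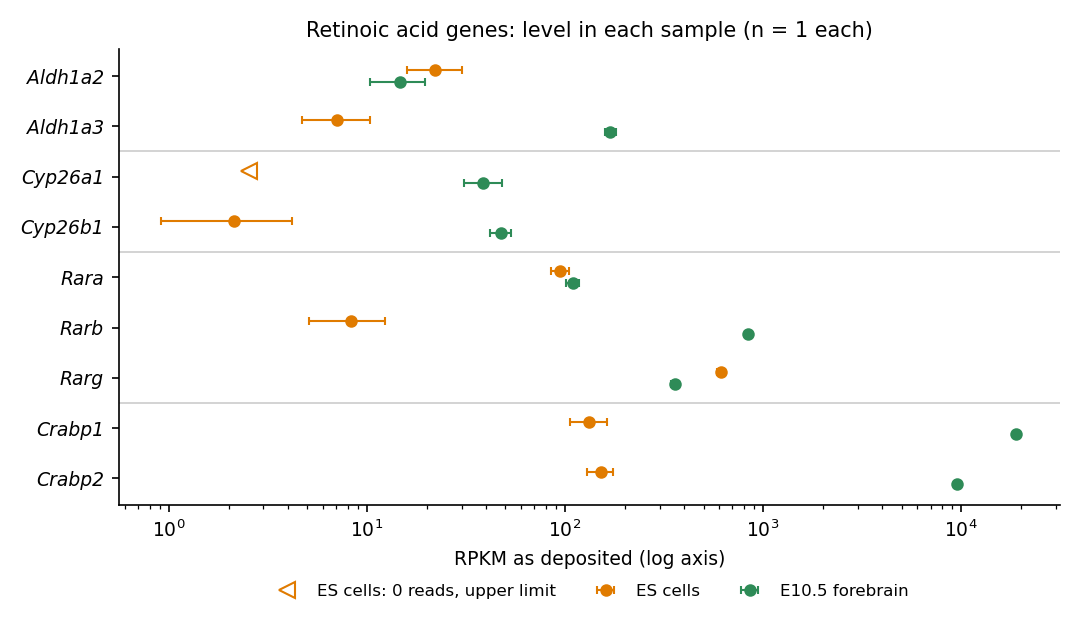
RPKM of the 9 genes (log axis) in ES cells (orange) and forebrain (green), with exact Poisson 95% intervals on the inferred reads, which cover counting error only. *Crabp1* and *Crabp2* lie farthest to the right in the forebrain, at 18843.15 and 9515.26. The open triangle marks the upper limit of 2.54 for *Cyp26a1*, which had 0 reads in ES cells.

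The cellular retinoic acid binding proteins had the highest levels of the 9 genes in the forebrain, and *Crabp1* had the widest difference between the samples. *Crabp1*, which binds retinoic acid in the cytoplasm, lies on chromosome 9 (54612555 to 54620917, plus strand, mm9) and has 1 annotated transcript of 802 bases. Its RPKM was 132.44 in ES cells, from 87 reads (exact Poisson 95% interval 106.1 to 163.4), and 18843.15 in the forebrain, from 18452 reads (18570 to 19120). This is a 142-fold difference (exact conditional binomial 95% interval on the reads, 115 to 178). In the forebrain only 35 protein-coding genes had a higher RPKM than *Crabp1*, whereas in ES cells 8637 did.

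*Crabp2*, which is known to hand retinoic acid on to its nuclear receptors, lies on chromosome 3 (87752588 to 87757298, plus strand). It had an RPKM of 150.99 in ES cells, from 163 reads (128.3 to 175.5), and of 9515.26 in the forebrain, from 15359 reads (9365 to 9667). The difference was 63.0-fold (54.2 to 74.2). At this depth the levels of both genes could not be told apart in ES cells, where *Crabp1* had 0.877 times the RPKM of *Crabp2* (0.67 to 1.15). In the forebrain *Crabp1* was 1.98 times as high as *Crabp2* (1.94 to 2.02). Their summed RPKM was 283.4 in ES cells and 28360 in the forebrain. *Crabp1* is also known from neural crest cells. Of the 9 head mesenchyme and neural crest markers counted above, 8 were called in the same direction. Among these, *Alx1* had 4.78 in ES cells and 1448.49 in the forebrain, and *Pdgfra* 7.25 and 1795.6. The 1 not called was *Tfap2a*, with 19.95 and 43.82. The part of these tissues in the levels of *Crabp1* and *Crabp2* was not tested.

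The genes most like *Crabp1* over both samples were sought by the distance on log2(RPKM + 1) among 19619 other protein-coding genes. The nearest was *Nnat*, with an RPKM of 123.49 in ES cells and 16094.94 in the forebrain (distance 0.25), and the next was *Crabp2* itself (distance 1.0). *Marcks* followed with 323.01 and 8509.55 (distance 1.72).

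**Figure D2:**
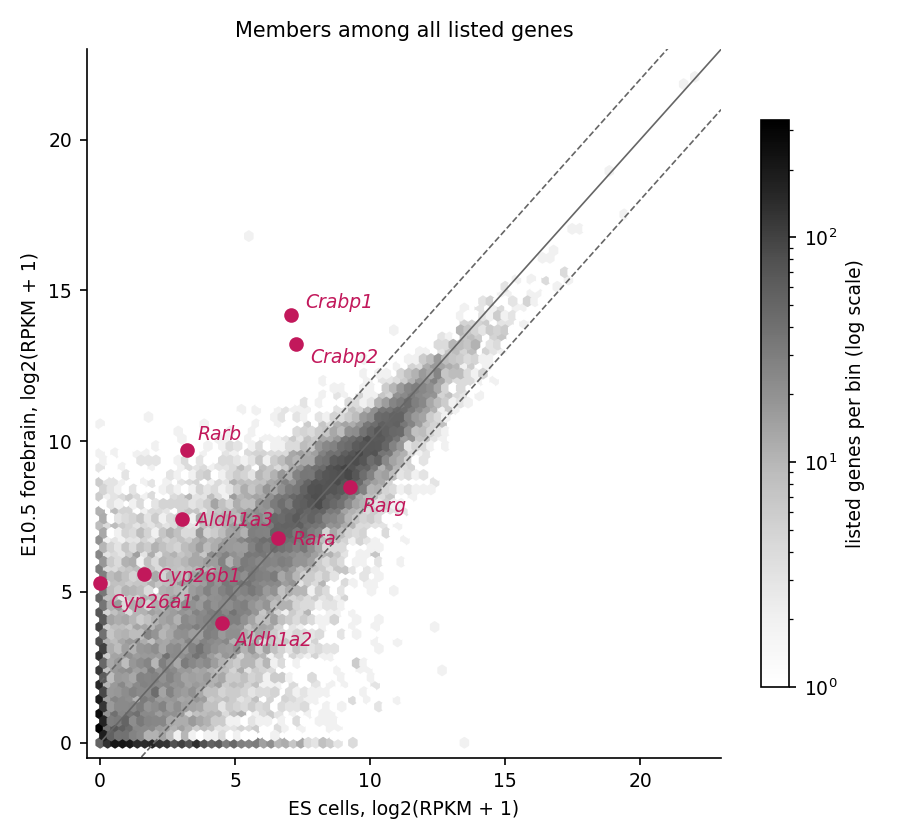
All 29311 listed genes by log2(RPKM + 1) in ES cells (x axis) and forebrain (y axis), shaded by the number of genes per bin, with the 9 genes in magenta. The solid line marks equal values and the dashed lines a 4-fold difference. 6 genes lie above the upper dashed line, and *Rara*, *Rarg* and *Aldh1a2* lie between the dashed lines.

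Of the 3 nuclear receptors, each of which acts as a transcription factor that retinoic acid switches, only *Rarb* was called. *Rarb* lies on chromosome 14 (17263356 to 17651381, minus strand). Its RPKM was 8.34 in ES cells, from 22 reads (5.11 to 12.35), and 837.0 in the forebrain, from 3365 reads (808.9 to 865.7), a 100.0-fold difference (67.6 to 164). Only 217 protein-coding genes had a larger log2 ratio. *Rarg* (chromosome 15, 102065369 to 102087948, minus strand) was the highest of the 9 genes in ES cells, with 613.85 from 2066 reads (587.8 to 641.0). In the forebrain it had 358.02 from 1796 reads (341.6 to 374.9), so that it was 1.71 times as high in ES cells (1.61 to 1.83), which does not reach the 4-fold asked for. *Rara* (chromosome 11, 98789132 to 98836256, plus strand) had 94.37 from 353 reads (84.7 to 104.6) in ES cells and 109.08 from 609 reads (100.6 to 118.1) in the forebrain. The ratio of 1.16 (1.01 to 1.32) is small, and its interval, which covers counting error only, barely excludes equal levels. A U6 snRNA gene lies inside *Rara* on the same strand (98807758 to 98807864), with an RPKM of 26.62 in ES cells and 7.66 in the forebrain.

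The summed RPKM of the receptors was 716.6 in ES cells and 1304 in the forebrain, a ratio of 1.82, but its make-up differed. *Rarg* held 85.7% of the sum in ES cells and 27.5% in the forebrain. *Rarb* held 1.2% and 64.2%, and *Rara* 13.2% and 8.4%. Within ES cells *Rarg* was 73.6 times as high as *Rarb* (49.6 to 120), whereas within the forebrain *Rarb* was 2.34 times as high as *Rarg* (2.21 to 2.48). The order of these receptors within a sample does not depend on the scaling between the samples.

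The genes most like *Rarg*, which had the lowest log2 ratio of the 9 (-0.78), were *Naa20*, *Gtpbp6* and *Mitd1*, each at a distance of at most 0.04. *Naa20* had an RPKM of 620.7 in ES cells and 365.66 in the forebrain. The nearest genes thus lay closer to *Rarg* than to *Crabp1*.

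Both degrading enzymes were called higher in the forebrain, from a level in ES cells at or close to 0. *Cyp26a1* (chromosome 19, 37772298 to 37776018, plus strand) had 0 reads in ES cells, where 3 reads would give an RPKM of 2.07. In the forebrain its RPKM was 38.58 from 84 reads (30.95 to 48.04), which is 18.7-fold higher with ES cells set to 3 reads. The lower limit of the counting interval of the ratio was 14.9. *Cyp26b1* (chromosome 6, 84521938 to 84543740, minus strand) had 2.12 in ES cells from 8 reads (0.916 to 4.18) and 47.52 in the forebrain from 267 reads (41.99 to 53.57), a 22.4-fold difference (11.2 to 52.4). Despite this difference, both genes remained below the median RPKM of all listed genes in the forebrain, which was 62.37. The 2 enzymes could not be ranked within the forebrain, since *Cyp26b1* was 1.23 times as high as *Cyp26a1* with an interval of 0.955 to 1.58. The third enzyme of this kind, *Cyp26c1*, had 2.1 from 3 reads in ES cells and 4.69 from 10 reads in the forebrain, and its ratio of 2.23 had an interval from 0.576 to 12.6.

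The enzymes of synthesis went apart. *Aldh1a3* (chromosome 7, 73535778 to 73572403, minus strand), known from the eye and the nasal region, had an RPKM of 7.09 in ES cells from 27 reads (4.71 to 10.39). In the forebrain it had 169.02 from 952 reads (158.4 to 180.0), a 23.8-fold difference (16.2 to 36.1). *Aldh1a2* (chromosome 9, 71063596 to 71144050, plus strand), the main enzyme of the trunk mesoderm, had 22.11 from 41 reads (15.87 to 30.0) in ES cells and 14.65 from 40 reads (10.34 to 19.7) in the forebrain. Its value in ES cells was 1.51 times that in the forebrain, with an interval from 0.964 to 2.42, so that a difference was not detectable at this depth. *Aldh1a2* was the lowest of the 9 genes in the forebrain. Within ES cells *Aldh1a2* was 3.12 times as high as *Aldh1a3* (1.86 to 5.23), whereas within the forebrain *Aldh1a3* was 11.5 times as high as *Aldh1a2* (8.51 to 16.4).

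The third enzyme of this family, *Aldh1a1*, was not among the 9 genes. It had 1 read in ES cells (RPKM 0.89) and 416 reads in the forebrain (165.77), a ratio of 186 with a wide interval (49.8 to 11000). In the forebrain *Aldh1a1* and *Aldh1a3* thus had similar levels, at 165.77 and 169.02. Among the markers of tissues that could carry these enzymes, 4 of 7 of the olfactory placode and surface ectoderm were higher in the forebrain, such as *Dlx5* (0 reads and an RPKM of 36.26). *Epcam* was higher in ES cells (1685.28 and 205.98), and *Krt8* and *Krt18* were not called. Of the 6 optic markers 4 were higher in the forebrain, and *Mitf* was higher in ES cells (328.57 and 38.46). The part of these tissues in the levels of *Aldh1a1* and *Aldh1a3* was not tested.

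**Figure D3:**
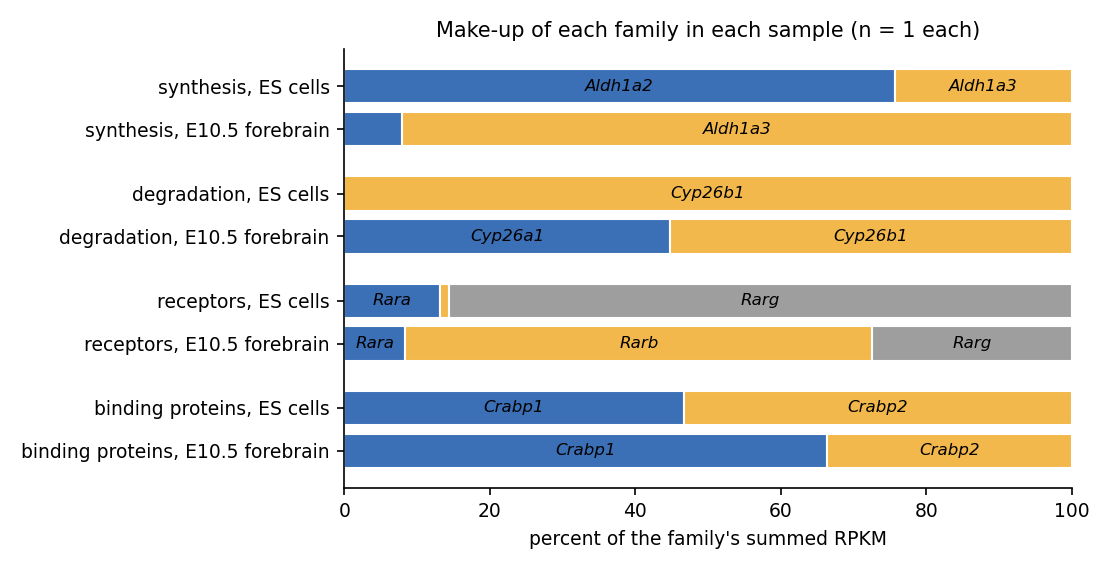
Share of each gene in the summed RPKM of its family (x axis, percent) in ES cells and in the forebrain, with 1 bar per family and sample. *Rarg* takes 85.7% of the receptor bar in ES cells and *Rarb* 64.2% in the forebrain, and the unlabelled segments are *Rarb* in ES cells (1.2%) and *Aldh1a2* in the forebrain (8.0%). *Cyp26b1* fills its bar in ES cells because *Cyp26a1* had 0 reads.

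In ES cells the order of the 9 genes was *Rarg*, *Crabp2*, *Crabp1*, *Rara*, *Aldh1a2*, *Rarb*, *Aldh1a3*, *Cyp26b1* and *Cyp26a1*. The intervals of *Crabp2* and *Crabp1*, of *Rarb* and *Aldh1a3* and of both *Cyp26* genes overlapped. The order within these pairs was thus not settled. In the forebrain the order was *Crabp1*, *Crabp2*, *Rarb*, *Rarg*, *Aldh1a3*, *Rara*, *Cyp26b1*, *Cyp26a1* and *Aldh1a2*, and only the intervals of *Cyp26b1* and *Cyp26a1* overlapped. With *Rarg* at percentile 81.0 of the listed genes in ES cells and *Crabp1* at percentile 99.4 in the forebrain, the highest of the 9 genes was a different one in each sample.

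The sequence upstream of these genes was then examined for the element that the receptors bind, because *Rarb* and *Cyp26a1* are known targets and were both called. Windows from 250 bases before to 50 bases after each annotated start of a protein-coding transcript were read from NCBIM37 (mm9), which gave 19 windows for the 9 genes. A direct repeat was counted where any of the hexamers AGGTCA or AGTTCA or GGGTCA or GGTTCA was followed, after a spacer of 5 bases, by any of them on the same strand, with both strands searched. Such a repeat was found in 32 of 42685 windows of listed protein-coding genes (0.075%). Of the 9 genes, *Cyp26a1* and *Rarb* had it, each in 1 of the 19 windows. The search was prompted by these known targets, so the share of all windows is no test of their matches. With a spacer of 2 bases, 34 windows (0.0797%) and none of the 9 genes had a repeat. None of the other pathway genes described below had either repeat in these windows, which cover promoters only and not more distant elements. The 200 bases upstream of both starts are shown 5′ to 3′ on the strand of the gene, with the repeat in capitals. They are taken from chr19:37772098-37772297 (plus strand) for *Cyp26a1* and from chr14:17407987-17408186 (minus strand) for the downstream start of *Rarb*.
Cyp26a1: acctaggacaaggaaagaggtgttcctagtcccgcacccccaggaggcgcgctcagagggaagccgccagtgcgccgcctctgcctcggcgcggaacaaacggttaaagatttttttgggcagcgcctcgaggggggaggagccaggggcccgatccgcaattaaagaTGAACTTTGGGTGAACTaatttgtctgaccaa
Rarb: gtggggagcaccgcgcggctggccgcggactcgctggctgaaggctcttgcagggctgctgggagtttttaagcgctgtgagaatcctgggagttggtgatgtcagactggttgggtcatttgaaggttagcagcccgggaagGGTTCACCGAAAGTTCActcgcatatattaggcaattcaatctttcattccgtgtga

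The repeat lay 32 to 16 bases before the start of *Cyp26a1*, where it is on the strand opposite to the gene, and 57 to 41 bases before the downstream start of *Rarb*. Written 5′ to 3′ on its own strand, with the hexamers in capitals and the spacer in lower case, it read as follows.
Cyp26a1: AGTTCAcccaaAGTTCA
Rarb: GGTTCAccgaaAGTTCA

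The window at the upstream start of *Rarb*, at position 17651381 of chromosome 14, had no such repeat. The RPKM is given per gene, so the reads of *Rarb* were not assigned to either start. *Crabp1* and *Crabp2* had no repeat in their windows. The GC content of the 19 windows ranged from 47.3 to 78.0%, compared with a median of 57.3% over all windows. It was highest for *Aldh1a2*. These matches describe the sequence, and binding of the receptors was not measured.

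The remaining genes of the pathway were grouped by role. Of 48 such genes, 47 are listed, and the counts that follow are over these 47. In all, 13 were called higher in the forebrain and 5 in ES cells, beside 14.4% and 11.3% of all listed genes, and the median log2 ratio was 0.53 (0.48 with genes without a read set to the level of 3 reads). Proteins for the supply and uptake of retinol made up 10 of these genes. *Stra6*, the membrane receptor that takes up retinol, had an RPKM of 1.36 in ES cells from 6 reads and 341.81 in the forebrain from 2433 reads, a 251-fold difference (125 to 742). *Fabp5*, a fatty acid binding protein that can also carry retinoic acid, had 65.2 and 601.78 (9.23-fold, 7.98 to 10.8). *Rbp7*, a cellular retinol binding protein, had 49.65 in ES cells from 29 reads and 0 reads in the forebrain. It was 14.5-fold higher in ES cells with the forebrain set to 3 reads (lower limit of the counting interval, 11.0). *Rbp4*, the plasma carrier of retinol, had 3.77 and 11.05 and was not called. *Rbp2* was also called higher in the forebrain, on 5 reads there and 0 in ES cells.

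Of 16 enzymes that interconvert retinol, retinal and retinoic acid, 3 were called higher in the forebrain and 1, *Adh4*, in ES cells on 11 and 2 reads. Besides *Aldh1a1* these were *Rdh10*, the retinol dehydrogenase, with 42.85 in ES cells and 181.34 in the forebrain (4.23-fold, 3.55 to 5.07), and *Dhrs3*, a reductase that returns retinal to retinol, with 26.69 and 194.91 (7.3-fold, 5.65 to 9.59). *Rdh10* was close to the limit, with a log2 ratio of 2.06 where 2 was asked for. The other 12 were not called, and the median log2 ratio of the group was 0.1.

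Of the 4 partner receptors 1 was called. *Rxra* had an RPKM of 249.23 in ES cells and 632.24 in the forebrain, and *Rxrb* had 676.3 and 755.74. Neither was called. *Rxrg* was the 1 called, with 2.92 from 5 reads and 21.4 from 60 reads (7.33-fold, 3.26 to 25.7). In both samples *Rxrb* was thus the highest of the RXR genes. Of 7 co-regulators only *Nrip1*, a ligand-dependent repressor of nuclear receptors, was called, with 52.0 and 250.4 (4.82-fold, 4.38 to 5.3).

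The 10 genes known to respond to retinoic acid in other settings were called in both directions. *Meis1* (6.85 in ES cells and 364.29 in the forebrain), *Meis2* (12.03 and 208.08), *Tshz1* (11.97 and 159.34), *Tgm2* (28.08 and 176.87) and *Foxa1* (0 reads and 15.67) were higher in the forebrain. *Cdx1*, a homeobox gene of the posterior embryo, had 677.06 in ES cells and 1.64 in the forebrain, and was 413-fold higher in ES cells (141 to 1330). *Hoxb1*, with 12 reads in ES cells and 0 in the forebrain, was also called higher in ES cells. *Rarb* and *Cyp26a1* on the one hand and *Cdx1* and *Hoxb1* on the other thus differed in opposite directions. The 7 markers of primitive streak and endoderm were called in both directions, 2 each way, with a median log2 ratio of 1.37. Their sum was 1220 in ES cells, mainly from *T* (1112.09), and 315.2 in the forebrain, mainly from *Eomes* (233.7). *Eomes* had 90.06 in ES cells and was not called. The markers called higher in the forebrain were *Sox17* (3.1 and 41.29) and *Foxa2* (1.55 and 30.07). Of the 5 hindbrain markers, 2 were called higher in ES cells and 1 in the forebrain, with sums of 484.8 and 45.19 and *Hoxa2* at 0 in the forebrain. Their part in the levels of *Cdx1* and *Hoxb1* was not tested. *Stra8* had 1 read in each sample.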

How the data were processed

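The 2 samples, 1 of ES cells and 1 of E10.5 forebrain, were analysed from a value per gene. The authors depleted rRNA, made strand-specific single-end libraries, mapped the reads to NCBIM37 (mm9) and derived the deposited RPKM per gene with the HTSstation pipeline. The submitters' processing notes name Bowtie 0.12.7. The 9 genes and the gene lists were chosen with earlier results of these data known.

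Exonic lengths came from the gencode vM1 annotation of the same build, and coordinates matched for all 29311 genes. Low values times exonic length in kb repeated in steps of 1.2211 (ES cells) and 0.819 (E10.5 forebrain), taken as 1 read. Of low values of genes with 1 transcript and up to 2500 bases of exon, 58.5 and 59.9% lay within 0.05 of a whole multiple, and 68.9 and 70.7% when multiples of 0.5 reads were allowed as well. Reads were rounded to whole reads and carry this uncertainty. The product of the steps was 1.0 and the median log2 ratio of the 24344 genes above 0 in both samples was 0.0, so the deposited RPKM is not scaled to library totals. Intervals are exact 95% intervals (Poisson, or conditional binomial for ratios) and cover counting error only.

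Ratios were taken on log2(RPKM + 1), which understates the change of low genes, and fold differences on RPKM. Differences of at least 4-fold were called without a test, since there were no replicates. Named genes were the 9 genes, other pathway genes past 4-fold with at least 20 reads, further pathway genes given whatever their values and the 3 genes nearest to the extremes. *Rbp2*, *Adh4*, *Hoxb1*, *Stra8* and the marker genes were named after their values were seen. Some genes that this rule names are not reported here. The calculations were tested on simulated data. Python 3.11.15, numpy 2.4.6, pandas 2.3.3, scipy 1.17.1 and matplotlib 3.10.9 were used.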

Additional observations from a re-analysis of the deposited data

How the results depend on the processing

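Of 174 alternative values, 151 stayed in the same direction and near the value reported, and 14 of the 174 were chosen after seeing the data. Near meant within 1.5 times for counts and read numbers, and within the counting interval for the ratio of a gene. For the median log2 ratio of the 9 genes it meant within the standard deviation of their log2 ratios. A median of 3.12 with 5 added to RPKM thus still counted as near 4.39. No member changed its sign or was called higher in ES cells under any alternative run. On reads per kb and per total of reads on genes, with the usual RPKM scale and 1 added, the number of the 9 genes called higher in E10.5 forebrain was 3, their median log2 ratio was 0.92, and 5 other pathway genes were called higher in E10.5 forebrain and 1 in ES cells, beside 3.56% and 2.37% of all listed genes. The added 1 weighs more on this scale, which has smaller values. With 5 added to RPKM, 3 of the 47 other pathway genes were called higher in ES cells, beside 6.8% of all listed genes. Asking for 2-fold gave 20 other pathway genes higher in E10.5 forebrain and 8 in ES cells, beside 25.8% and 23.3% of all listed genes, and 8-fold gave 7 and 3, beside 8.64% and 6.24%. The log2 ratio of *Cyp26a1* ranged from 0.84 to 8.6 over the alternatives and that of *Crabp1* from 6.77 to 7.41. Division by the sum of values shifted the median log2 ratio of all genes from 0.01 to 0.26, and that of *Rara* to 0.48 and *Rarg* to -0.5. All 54 alternative read numbers lay within 1.5 times the number used. They included the reads rounded down and up, which could hardly differ from it. The run on genes with at least 3 reads in either sample could not change the values of the 9 genes. Both kinds of run are counted among the 174. No paired analysis was possible because each cell type has 1 sample.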
